A study of Homo sapiens with 30 samples.

Results

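The CEP genes, named for centrosomal proteins, were taken as every row of the gene count table whose name is CEP followed by digits alone. This rule found 33 of the 58780 genes of the table. All 33 passed the filter on low counts, beside 22919 genes in all. CEP170 lies outside the rule, because its row carries the joint name of the gene and a pseudogene copy. The level of nascent transcription was measured by PRO-seq, a run-on assay in which engaged RNA polymerases in permeabilised cells extend their transcripts with labelled nucleotides, and the labelled RNA is captured and sequenced. The cells were A549, an established human lung adenocarcinoma line.

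The 30 libraries form 15 groups of 2. Cells received GSK591, an inhibitor of the type II protein arginine methyltransferase PRMT5, or MS023, an inhibitor of type I protein arginine methyltransferases, each at 1 uM, for 2, 4 or 7 days. The glucocorticoid agonist dexamethasone (Dex) was given at 100 nM to other groups for 15 min or 3 h, alone, together with either inhibitor for 3 h, or after 7 days of either inhibitor. Untreated cells were the common control at every time. By the labels all 15 groups, Untreated included, had 0.01% DMSO, and the control's own time was 15 min, so that for 3 h of Dex and for 2 to 7 days of inhibitor the treatment and the time in culture cannot be told apart. Nothing in the labels says that the 2 libraries of a group came from separate cultures, so p-values measure only the spread between these libraries, which may be technical.

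Centrosomes are built around a pair of centrioles, which duplicate once per cell cycle, recruit a matrix that nucleates microtubules, and organise the poles of the mitotic spindle. The older centriole of each pair carries distal and subdistal appendages, and in resting cells it docks at the plasma membrane and templates a primary cilium. CEP proteins act at each of these steps, and CEP55 acts at the midbody, the bridge between daughter cells that is cut at the end of division. Several genes of this machinery are transcribed in waves along the cell cycle, through promoter elements known as E2F sites, the CHR (cell cycle genes homology region) and CCAAT boxes.

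The 250 bases before the RefSeq start are shown for the 3 CEP genes with the lowest fold changes among those that fell after 7 days of GSK591 and have an entry in the promoter table (RefSeq, GRCh38.p14). Each is written 5′ to 3′ along the gene's strand, and capitals mark matches to the CHR (the word TTTGAA or the word TTCGAA), to E2F sites (the word TTGGCGC, the word TTCCCGC, the word TTCGCGC or the word TTGCCGC) and to the CCAAT box (the word CCAAT), each searched on both strands.
CEP55, chr10:93496362-93496611, plus strand: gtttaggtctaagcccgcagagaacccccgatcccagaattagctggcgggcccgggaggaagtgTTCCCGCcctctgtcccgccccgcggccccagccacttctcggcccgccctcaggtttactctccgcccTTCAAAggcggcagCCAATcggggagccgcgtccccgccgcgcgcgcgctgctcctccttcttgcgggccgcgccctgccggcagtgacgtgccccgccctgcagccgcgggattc
CEP128, chr14:80941739-80941988, minus strand: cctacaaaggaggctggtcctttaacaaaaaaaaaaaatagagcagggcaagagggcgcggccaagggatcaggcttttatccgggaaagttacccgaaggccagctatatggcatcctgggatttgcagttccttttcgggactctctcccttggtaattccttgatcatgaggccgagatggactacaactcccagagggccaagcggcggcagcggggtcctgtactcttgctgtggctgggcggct
CEP72, chr5:612090-612339, plus strand: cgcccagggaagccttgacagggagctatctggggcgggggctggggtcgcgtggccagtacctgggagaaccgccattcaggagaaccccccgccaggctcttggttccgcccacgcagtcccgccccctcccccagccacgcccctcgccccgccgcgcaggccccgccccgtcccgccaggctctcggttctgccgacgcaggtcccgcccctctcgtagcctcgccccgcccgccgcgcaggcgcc
CEP55 held an E2F match 185 bases, a CHR match 116 bases and a CCAAT match 102 bases upstream of its start, and a further CHR match that begins 3 bases upstream and runs across the start. CEP72 had no match in the part shown and a CHR match 15 bases downstream of the start. CEP128 had no match to these words in its window, which says only that these letters are not there. That window, at 80941739-80941988, lies inside the GENCODE span of the counted gene, which on the minus strand begins at 80959517. The bases before that beginning are not shown, so the lack of matches says nothing about them.

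Over windows of 300 bases, which run 50 bases past the start, the table held 38 entries for 30 of the 33 genes. A CHR match was present in 14 of the 38 entries (36.8%) and in 16.4% of all 35116 entries of the table. E2F matches were present in 16 entries (42.1%) against 13.0% of all, and CCAAT matches in 20 entries (52.6%) against 34.6%. These shares are a description, since neighbouring entries of a gene share sequence. CEP68 and CEP192, which passed the edgeR test on the counts in no comparison, held 3 E2F matches each beside CCAAT matches, and CEP192 also held a CHR match. In the authors' deposited tables, however, CEP192 fell with a call at 4 and 7 days of GSK591 (-0.53 and -0.69 on the log2 scale). It also fell there at 2, 4 and 7 days of MS023 (-0.30, -0.28 and -0.35).

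Total counts per library ran from 8441211 to 13069598 with a median of 10141639.5, and mitochondrial genes took 58.7% to 78.7% of them. The 33 CEP genes together had 2041 to 5081 counts per library, with single genes between 2 counts (CEP162) and 592 counts (CEP250), so the depth behind a gene differed widely. Levels are given as CPM, a gene's count scaled to a common library size after TMM normalisation, which sets libraries to a common level over most genes. Without it, on library totals alone, the median log2 fold change over all genes tested moved to 0.68, 0.74 and 1.02 after 2, 4 and 7 days of MS023, and to 0.29, 0.42 and -0.03 for GSK591. Every change reported is therefore relative to the median of all genes. Mitochondrial genes took 76.0% and 73.4% of counts in the Untreated libraries. They took 62.2% and 65.0%, 64.9% and 66.1%, and 58.7% and 59.6% after 2, 4 and 7 days of MS023. After 7 days of GSK591 the shares were 73.7% and 78.7%. Library totals include these counts, and their part in the values on library totals was not tested. All 10 A549 markers looked up had counts in every library, the lowest being EPCAM at 0.957 to 6.19 CPM. Of 12 markers of other cell types, PTPRC, CD3E and INS were at 0 in 13, 21 and 29 of the 30 libraries and at most 0.437 CPM in the rest. Of the same 12, GFAP (4.01 to 36.1 CPM), COL1A1 (2.41 to 8.24 CPM) and CD14 (0.613 to 5.82 CPM) had counts in every library. The medians of GFAP and COL1A1, 9.17 and 3.93 CPM, were above the 2.34 CPM of EPCAM. The 12 markers of other cell types summed to 14.3 to 17.3 CPM in Untreated cells, 27.6 to 31.2 CPM after 7 days of GSK591 and 22.4 to 32.3 CPM after 7 days of MS023. Among the 7 of them that passed the filter, COL1A1 and CDH5 rose after 7 days of MS023 and none passed the test after 7 days of GSK591, whereas CD14 rose at 4 days of GSK591 (1.12 on the log2 scale), and their part in the CEP results was not tested.

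One library stood apart for the CEP genes. Replicate 2 of Dex with MS023 for 3 h had 497 CPM over the 33 CEP genes, the largest sum of the 30 libraries, against 338 CPM in replicate 1 of that group, and 30 of the 33 genes were higher in replicate 2. The median log2 ratio of the 2 libraries over the 33 genes was 0.51, whereas it lay between -0.19 and 0.23 in the other 14 groups. CEP55 read 33.9 and 12.1 CPM in these 2 libraries, and CEP350 read 37.8 and 11.3 CPM. Mitochondrial genes took 61.0% of counts in replicate 2 and 71.2% in replicate 1, and the part of this in the CEP values was not tested. Over 11117 genes, the replicates of this group had the lowest correlation of log2 CPM (0.926, against 0.962 to 0.985 in the others). By chi-square per degree of freedom the widest replicates were those of GSK591 for 7 days (71.6), before Dex with MS023 (42.2) and 7 days of GSK591 followed by Dex for 3 h (42.2) or 15 min (34.9), with 3.21 to 21.5 in the other groups.

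Set per kilobase of exonic length, the only scale on which levels of different genes are compared here, CEP55 was the highest CEP gene in Untreated cells at 4.04 CPM per kb, followed by CEP89 at 3.43, CEP68 at 3.12 and CEP120 at 2.94 CPM per kb. CEP44 was the lowest at 0.149 CPM per kb, below CEP162 at 0.322 CPM per kb. This scale takes the counts to come from exons, which the sources used here do not state, and the order may differ on another scale. CEP genes are long and rich in exons. Their gene length had a median of 68.7 kb (6.02 to 557 kb) against 31.2 kb for 14978 protein-coding genes tested, and they had a median of 18 exons against 9. The 3 with the lowest fold changes differed in size: CEP128 (ENSG00000100629.16) spans chr14:80476983-80959517 in GENCODE 29 on hg38, CEP55 (ENSG00000138180.15) chr10:93496632-93529092, and CEP72 (ENSG00000112877.7) chr5:612272-667168.

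Relative to the median of all genes, a part of the CEP genes was lower with either inhibitor, led by CEP128, CEP55, CEP72 and CEP78 for GSK591 and by CEP128 for MS023; on library totals alone MS023 gave no fall. The question put by the design is how nascent transcription responds when methylation by either class of PRMT is blocked. A gene is said to have risen or fallen where the adjusted p of the edgeR quasi-likelihood test (Benjamini-Hochberg over 22919 genes) was below 0.05. With GSK591, 1 of 33 fell and 0 rose at 2 days (5.64% of all genes passed, 2.45% by falling), 10 fell and 1 rose at 4 days (17.2% passed, 8.28% by falling and 8.91% by rising), and 9 fell and 0 rose at 7 days (13.2% passed, 6.52% by falling). MS023 gave 2 that fell and 0 that rose at 2 days (10.4% of all genes, 4.21% by falling), 5 that fell and 1 that rose at 4 days (14.2%, 6.37% by falling and 7.8% by rising), and 8 that fell and 0 that rose at 7 days (13.6%, 6.51% by falling). As shares of the 33, the falls were 30.3% and 27.3% for GSK591 at 4 and 7 days and 24.2% for MS023 at 7 days. At 2 days the falls, 3.03% for GSK591 and 6.06% for MS023, were near the shares of all genes that fell.

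The median log2 fold change over the 33 genes was -0.27, -0.27 and -0.42 after 2, 4 and 7 days of GSK591, and -0.32, -0.37 and -0.28 for MS023, while the median over all genes tested lay within 0.01 of 0 in all 6 comparisons. After 7 days of GSK591, 30 of the 33 values were below 0. In all, 16 of the 33 genes passed in at least 1 of these 6 comparisons, 10 in at least 2, and 17 in none. All 6 share the Untreated libraries, so their values stand side by side and are not independent of each other.

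**Figure D1:**
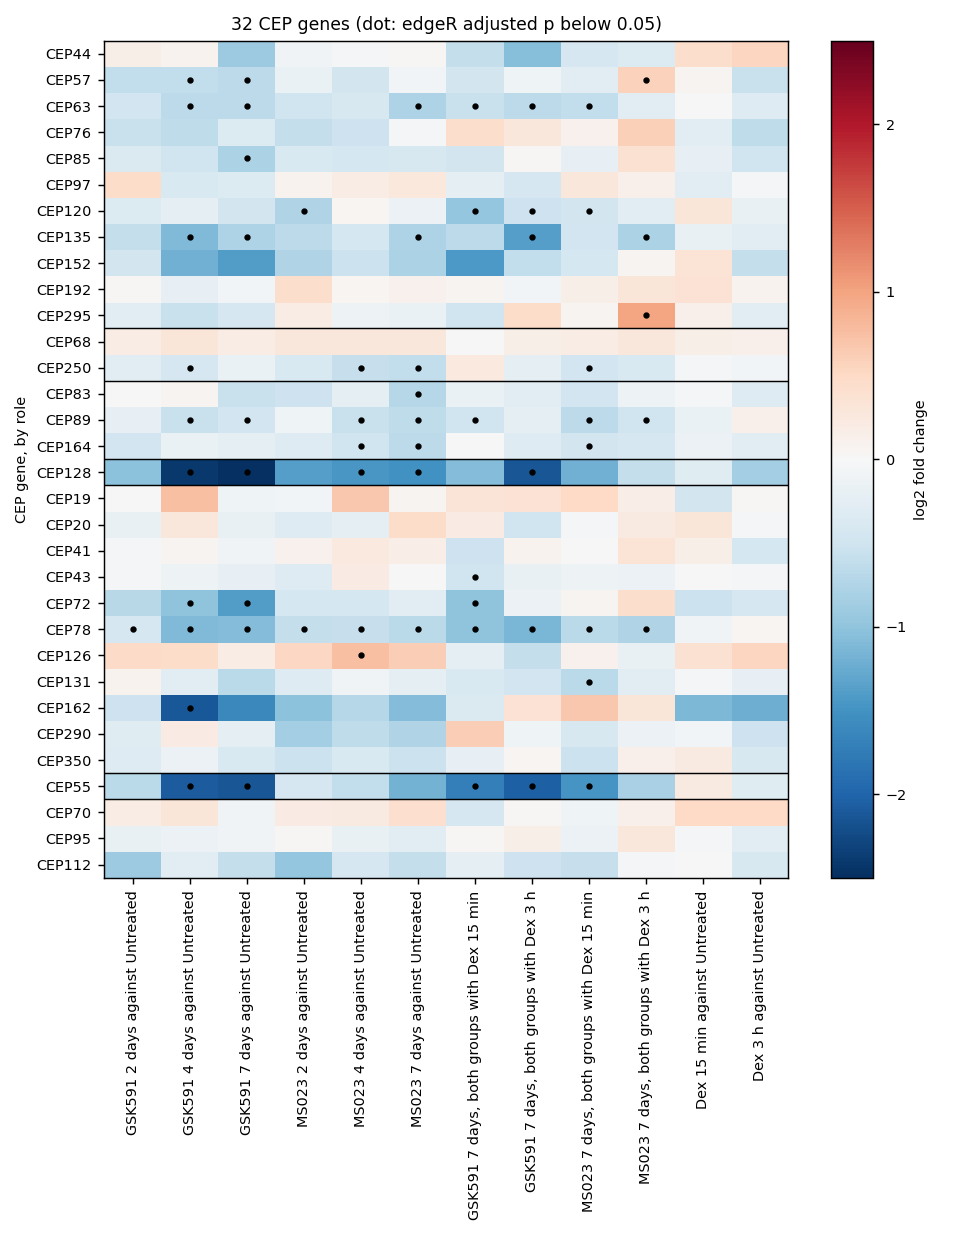
Log2 fold changes (colour) of 32 CEP genes (rows, grouped by role with black lines between groups) in 12 comparisons (columns), scaled by TMM; black dots mark an edgeR adjusted p below 0.05. CEP78 carries a dot in each of the 10 inhibitor comparisons, whereas the 2 Dex columns carry none; on library totals alone the values of CEP78 turn positive for MS023 against Untreated at 2, 4 and 7 days (0.09, 0.18 and 0.34) and for MS023 with Dex 3 h in both groups (0.09).

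The number that passed was smaller without most single libraries, for the CEP genes and for all genes. At 4 days of GSK591 it went from 11 to 6 without Untreated replicate 1 and to 5 without replicate 2 of the treated group. At 7 days it went from 9 to 5 without Untreated replicate 2, to 3 without replicate 1 of the GSK591 group and to 2 without its replicate 2. For MS023, 6 at 4 days became 2 without Untreated replicate 1 and 3 without any of the other 3 libraries, and 8 at 7 days became 4 without either Untreated library, and 5 or 3 without replicate 1 or 2 of the MS023 group. The single call of GSK591 at 2 days was lost without any of its 4 libraries, and the 2 of MS023 at 2 days became 1 without either Untreated library or replicate 1 of the MS023 group, and 3 without its replicate 2. Over all genes, leaving out 1 library took the calls from 1292 to between 377 and 506 at 2 days of GSK591, from 3941 to between 2140 and 2375 at 4 days, and from 3026 to between 1574 and 1760 at 7 days. For MS023 they went from 2381 to between 964 and 1261, from 3247 to between 1475 and 1936, and from 3127 to between 1525 and 1739. DESeq2 called 0, 5 and 6 of the 33 for GSK591 and 3, 4 and 7 for MS023 at 2, 4 and 7 days. Among the calls described below, it did not make those of CEP78 at 2 days of GSK591, of CEP57, CEP63, CEP72 and CEP250 at 4 days or of CEP57, CEP63 and CEP135 at 7 days. Nor did it make those of CEP126 and CEP164 at 4 days and of CEP83 and CEP135 at 7 days of MS023. For CEP162 at 4 days of GSK591, DESeq2 gave no call and no value to set beside that of edgeR. On library totals alone GSK591 gave 0, 4 rises with 3 falls, and 4 falls, without the calls of CEP78 at 2 days, of CEP57, CEP63, CEP72, CEP89, CEP135, CEP162 and CEP250 at 4 days and of CEP57, CEP63, CEP85, CEP89 and CEP135 at 7 days. The MS023 counts turned to 8, 12 and 18 rises with 0 falls, against the medians of all genes given above.

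Among the 11 CEP genes of centriole assembly and duplication, 3 fell at 4 days of GSK591, 4 at 7 days, and 1, 0 and 2 after 2, 4 and 7 days of MS023. Of all genes, 8.28% and 6.52% fell at 4 and 7 days of GSK591 and 4.21%, 6.37% and 6.51% at 2, 4 and 7 days of MS023. Counts of 0 to 2 in 11 are too few to be read as above or below that background. CEP135, a component of the centriole's inner cartwheel and wall, read 7.01 and 7.66 CPM in the Untreated libraries. It read 3.17 and 3.61 CPM after 4 days and 4.53 and 4.02 CPM after 7 days of GSK591, and 4.53 and 4.05 CPM after 7 days of MS023. Each of these pairs lay below both Untreated values. The log2 fold change was -1.11 ± 0.27 (SE, n = 2 per group; edgeR adjusted p = 0.00239) at 4 days of GSK591, -0.77 ± 0.27 (edgeR adjusted p = 0.0496) at 7 days, and -0.77 ± 0.25 (edgeR adjusted p = 0.0306) at 7 days of MS023. The first held without any single library, while the others were lost without any of their 4 libraries, with values between -0.87 and -0.69 for GSK591 and between -0.86 and -0.69 for MS023. The MS023 value was 0.24 on library totals alone.

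CEP63 and CEP57 are related proteins of the centriole's outer wall, and CEP63 helps recruit the duplication kinase PLK4. CEP63 read 11.8 and 13.4 CPM in Untreated cells, 9.60 and 6.32 CPM after 4 days and 8.49 and 7.5 CPM after 7 days of GSK591, and 7.79 and 7.02 CPM after 7 days of MS023. No treated value reached the Untreated ones. Its log2 fold changes were -0.66 ± 0.19, -0.65 ± 0.20 and -0.77 ± 0.19 (SE; edgeR adjusted p = 0.0120, 0.0206 and 0.00310). They were lost without Untreated replicate 2 (-0.56, -0.56 and -0.67) and without replicate 2 of each treated group (-0.39, -0.57 and -0.69), and at 7 days of GSK591 also without its replicate 1 (-0.75). The MS023 value was 0.25 on library totals alone. An exon of ANAPC13 overlaps CEP63 on the opposite strand, and the use of strand in counting is not given in the sources used here, so reads of the 2 genes may not be told apart.

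CEP57 read 9.90 and 11.1 CPM in Untreated cells, 7.11 and 6.62 CPM after 4 days and 7.09 and 6.30 CPM after 7 days of GSK591, below both controls. After 7 days of MS023 it read 10.1 and 9.99 CPM, within the Untreated range (log2 fold change -0.07), whereas the authors' deposited table gives -0.67 and a call. The falls with GSK591 were -0.61 ± 0.20 and -0.65 ± 0.21 on the log2 scale (SE; edgeR adjusted p = 0.0268 and 0.0304), and each was lost without any of its 4 libraries, at -0.69 to -0.52 and -0.74 to -0.56. CEP85, which binds the duplication factor STIL, fell at 7 days of GSK591 alone among the 6, from 9.79 and 9.57 CPM to 5.70 and 5.49 CPM, by 0.79 ± 0.21 on the log2 scale (SE; edgeR adjusted p = 0.00625). That call was lost without replicate 1 (-0.82) or replicate 2 (-0.76) of the GSK591 group.

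CEP120, which promotes centriole elongation, had Untreated libraries far apart, at 14.6 and 21.1 CPM. It read 9.97 and 11.4 CPM after 2 days of MS023, 18.8 and 18.1 CPM after 4 days and 16.6 and 15.6 CPM after 7 days, so the 2-day pair alone lay below both controls. The fall at 2 days was -0.74 ± 0.17 (SE; edgeR adjusted p = 0.00186), and it was lost without Untreated replicate 2 (-0.45) or replicate 1 of the MS023 group (-0.66). The authors' deposited table gives 0.15 for it, of the other sign and without a call. CEP152, the partner of CEP63 in recruiting PLK4, was at low counts and did not pass: it read 5.01 and 3.63 CPM in Untreated cells and 1.74 and 1.47 CPM after 7 days of GSK591, with a log2 fold change of -1.40 ± 0.60 (edgeR adjusted p = 0.140). The remaining members of this group, CEP44, CEP76, CEP97, CEP192 and CEP295, passed in none of the 6 comparisons.

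Of the linker that ties the 2 centrioles together, CEP250, the anchor also known as C-Nap1, fell in 3 comparisons, and CEP68 in none. CEP250 (ENSG00000126001.15, chr20:35455164-35519280) read 46.9 and 39.6 CPM in Untreated cells and 34.8 and 29.6 CPM after 4 days of GSK591, but 38.6 and 38.6 CPM after 7 days. With MS023 it read 31.3 and 26.3 CPM at 4 days and 27.8 and 28.8 CPM at 7 days, all below the lower control. The log2 fold changes were -0.43 ± 0.14 for GSK591 at 4 days, and -0.59 ± 0.14 and -0.61 ± 0.14 for MS023 (SE; edgeR adjusted p = 0.0289, 0.00251 and 0.00172). The same values on library totals alone were 0.01, 0.17 and 0.42. They were lost without Untreated replicate 1, at -0.30, -0.46 and -0.48, and at 4 days also without replicate 2 of GSK591 (-0.31) or of MS023 (-0.46). An exon of FO393401.1 overlaps CEP250 on the opposite strand. CEP68 read 26.1 and 27.6 CPM in Untreated cells and between 26.0 and 38.7 CPM in the other 28 libraries.

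All 3 CEP genes of the distal appendages fell after 7 days of MS023, beside 2 of 11 linker and appendage genes without a CEP name and 6.51% of all genes. They are CEP83, CEP89 and CEP164, and on library totals alone they were at 0.31, 0.39 and 0.35. These proteins attach the older centriole to the membrane, and CEP164 recruits the kinase TTBK2 that starts cilium growth. CEP89 (ENSG00000121289.17, chr19:32875925-32971991) read 31.4 and 31.9 CPM in Untreated cells, 22.7 and 20.6 CPM after 4 days of MS023 and 20.5 and 20.4 CPM after 7 days. With GSK591 it read 20.3 and 22.7 CPM at 4 days and 23.4 and 21.8 CPM at 7 days. The treated pairs at 4 and 7 days were all well below the controls, and the spread within each group was small. Log2 fold changes were -0.55 ± 0.12 and -0.63 ± 0.12 for MS023 (SE; edgeR adjusted p = 0.00108 and 0.000203), and -0.56 ± 0.12 and -0.48 ± 0.13 for GSK591 (edgeR adjusted p = 0.000860 and 0.00635). All but the last held without any single library, and that one was lost without Untreated replicate 2 (-0.47) or replicate 2 of the GSK591 group (-0.44). On library totals alone the MS023 values turned to 0.20 and 0.39.

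CEP164 read 15.1 and 15.8 CPM in Untreated cells, 10.3 and 11.5 CPM after 4 days and 10.3 and 9.26 CPM after 7 days of MS023, with no overlap. It fell by 0.51 ± 0.15 and 0.66 ± 0.16 on the log2 scale (SE; edgeR adjusted p = 0.0195 and 0.00223), and on library totals alone it was 0.24 and 0.35 higher. The 4-day call was lost without any of its 4 libraries (-0.58 to -0.43), and the 7-day call without replicate 2 of the MS023 group (-0.59). GSK591 gave 13.7 and 12.5 CPM at 7 days and no call. CEP83 read 9.23 and 7.36 CPM in Untreated cells and 4.6 and 5.50 CPM after 7 days of MS023, a log2 fold change of -0.71 ± 0.23 (SE; edgeR adjusted p = 0.0336) that became 0.31 on library totals and was lost without any of its 4 libraries (-0.87 to -0.54). In the counts GSK591 gave no call for CEP83. The authors' deposited tables call CEP83 lower at 2, 4 and 7 days with GSK591 (-0.37, -0.41 and -0.78) as well as with MS023 (-0.30, -0.38 and -0.35). Its fall is therefore not particular to MS023 there. Exons of AP000892.1 and PLXNC1 overlap CEP164 and CEP83 on the opposite strand.

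CEP128, a subdistal appendage protein needed for the anchoring of microtubules at the older centriole, had the lowest fold change of the 33 genes in all 6 comparisons with Untreated cells. It read 10.3 and 8.66 CPM in the Untreated libraries, 4.97 and 4.37 CPM after 2 days of GSK591, 1.54 and 2.01 CPM after 4 days and 2.09 and 0.938 CPM after 7 days, the last being 7 counts. With MS023 the pairs were 3.32 and 3.97, 4.12 and 2.78, and 2.62 and 4.05 CPM at 2, 4 and 7 days. Every inhibitor library lay below both controls, and the GSK591 libraries at 4 and 7 days lay below every MS023 library of the same days. With Dex alone it read 5.03 and 10.3 CPM after 15 min and 4.46 and 6.11 CPM after 3 h, without passing the test.

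The log2 fold change of CEP128 was -2.42 ± 0.52 and -2.60 ± 0.57 after 4 and 7 days of GSK591 (SE; edgeR adjusted p = 0.00369 and 0.00488), and -1.46 ± 0.45 and -1.51 ± 0.45 after 4 and 7 days of MS023 (edgeR adjusted p = 0.0379 and 0.0338). At 2 days it was -1.03 ± 0.47 for GSK591 and -1.37 ± 0.46 for MS023, and neither passed. The GSK591 calls were lost without replicate 1 of the 4-day group (-2.25) and without replicate 2 of the 7-day group (-2.17). Both MS023 calls were lost without any of their 4 libraries, with values from -1.77 to -1.20 at 4 days and from -1.85 to -1.23 at 7 days. In bulk libraries, fewer cells in a state that transcribes a gene and less transcription per cell cannot be told apart.

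Among the 12 genes of cilium formation and the centriolar satellites, granules that carry proteins to the centrosome, CEP78 was the only one to fall in all 6 comparisons. CEP78 (ENSG00000148019.13, chr9:78236062-78279690) is a centriole wall protein whose loss causes a retinal and hearing disorder. It read 27.6 and 23.8 CPM in Untreated cells, 18.8 and 19.3 CPM after 2 days of GSK591, 12.6 and 11.3 CPM after 4 days and 10.8 and 13.4 CPM after 7 days. With MS023 it read 16.7 and 17.3, 17.1 and 17.4, and 15.2 and 16.8 CPM at 2, 4 and 7 days. No inhibitor library reached the lower control, and the GSK591 libraries at 4 and 7 days lay below all MS023 libraries.

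On the log2 scale CEP78 fell by 0.43 ± 0.13, 1.10 ± 0.14 and 1.09 ± 0.14 after 2, 4 and 7 days of GSK591 (SE; edgeR adjusted p = 0.0465, 3.89e-08 and 1.35e-07). The MS023 values were -0.59 ± 0.13, -0.57 ± 0.13 and -0.68 ± 0.13 (edgeR adjusted p = 0.00160, 0.00119 and 0.000153), and on library totals alone 0.09, 0.18 and 0.34. The calls of GSK591 at 4 and 7 days and of MS023 at 7 days held without any single library. Those of MS023 at 2 and 4 days were lost without Untreated replicate 1 (-0.48 and -0.46), and that of GSK591 at 2 days without any of its 4 libraries (-0.53 to -0.32). No annotated exon of another gene overlaps CEP78.

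CEP72, a satellite protein that recruits other factors to the spindle poles, read 5.34 and 4.94 CPM in Untreated cells, 3.36 and 2.99 CPM after 2 days of GSK591, 2.11 and 3.01 CPM after 4 days and 1.74 and 2.14 CPM after 7 days. With MS023 it read 3.26 and 5.14 CPM at 7 days, a pair that overlapped the controls. It fell by 1.00 ± 0.29 at 4 days and by 1.40 ± 0.32 at 7 days of GSK591 on the log2 scale (SE; edgeR adjusted p = 0.0122 and 0.00177). The first was lost without Untreated replicate 1 (-0.95) or replicate 1 of the GSK591 group (-0.78), and the second without replicate 1 of the GSK591 group (-1.26). An exon of TPPP overlaps CEP72 on the opposite strand.

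CEP126 was the only CEP gene to rise with MS023 in the 6 comparisons with Untreated cells, at 4 days, from 4.45 and 3.32 CPM to 7.03 and 5.98 CPM, by 0.75 ± 0.24 (SE; edgeR adjusted p = 0.0240), a call lost without Untreated replicate 2 (0.55) or replicate 1 of the MS023 group (0.63). CEP162, a protein of the ciliary transition zone, fell at 4 days of GSK591 by 2.13 ± 0.68 (SE; edgeR adjusted p = 0.0254) but at 2.11 and 1.41 CPM in Untreated cells and 0.576 and 0.201 CPM after treatment it rests on few counts, and it was lost without Untreated replicate 1 (-1.82) or replicate 2 of the GSK591 group (-1.58). CEP19, CEP20, CEP41, CEP43, CEP131, CEP290 and CEP350, of the same group, passed in none of the 6 comparisons.

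CEP55, which brings the membrane-cutting ESCRT machinery to the midbody in cytokinesis, fell with GSK591 at 4 and 7 days. It read 13.3 and 13.1 CPM in Untreated cells, 6.45 and 10.0 CPM at 2 days, 3.55 and 2.71 CPM at 4 days and 2.56 and 3.48 CPM at 7 days of GSK591. MS023 gave 10.3 and 9.51, 6.47 and 10.8, and 5.88 and 5.79 CPM at 2, 4 and 7 days. All inhibitor libraries lay below both controls. The log2 fold change was -2.07 ± 0.48 and -2.14 ± 0.51 at 4 and 7 days of GSK591 (SE; edgeR adjusted p = 0.00676 and 0.0102), whereas -1.18 ± 0.42 at 7 days of MS023 did not pass (edgeR adjusted p = 0.0750). The 4-day call was lost without replicate 2 of the GSK591 group (-1.89), and the 7-day call without either of its treated libraries (-1.93 and -2.36). CEP70, CEP95 and CEP112, for which no role is given here, passed in none of the 6 comparisons.

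**Figure D2:**
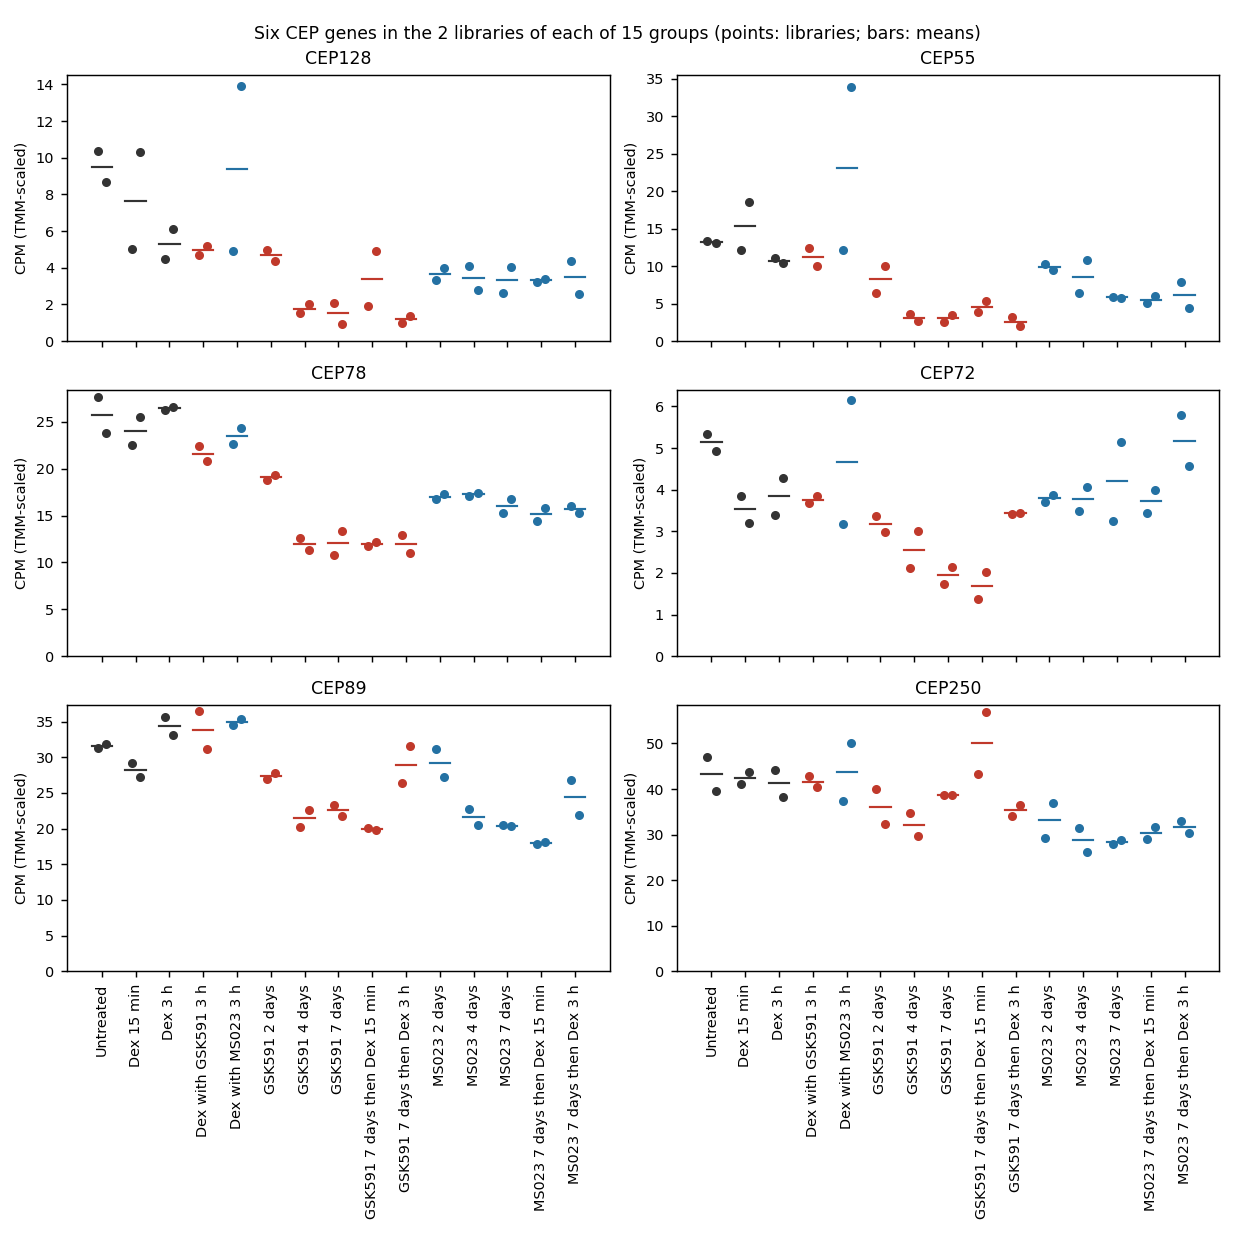
CPM after TMM scaling (vertical axis, from 0) of 6 CEP genes in the 15 groups (horizontal axis); points are the 2 libraries of a group, bars their mean, with GSK591 groups in red, MS023 groups in blue and the rest in grey. CEP78 lies between 10.8 and 13.4 CPM in the 8 libraries with 4 or 7 days of GSK591, against 23.8 and 27.6 CPM in Untreated cells, and replicate 2 of Dex with MS023 stands high for CEP55 at 33.9 CPM.

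Compared directly, the inhibitors differed for 3 of the 33 genes, and the shares were below those of all genes. At 2 days 0 genes passed (2.69% of all genes did; 3 CEP genes had an unadjusted p below 0.05 in edgeR, and DESeq2 called 0). At 4 days CEP78 was lower with GSK591 than with MS023, by 0.53 ± 0.14 on the log2 scale (SE; edgeR adjusted p = 0.0110; 6.03% of all genes passed). At 7 days CEP72 was lower with GSK591 by 1.11 ± 0.32 (edgeR adjusted p = 0.0181), while CEP250 was higher by 0.45 ± 0.14 (edgeR adjusted p = 0.0356), with 9.38% of all genes passing. DESeq2 made none of these 3 calls, and on library totals alone CEP250 was at -0.60. CEP78 was lost without replicate 2 of GSK591 (-0.46) or either MS023 library (-0.55 and -0.51). CEP72 was lost without either GSK591 library (-0.97 and -1.26) or replicate 2 of MS023 (-0.75), and CEP250 without any of its 4 libraries (0.43 to 0.47). For CEP55 and CEP128 at 7 days, the gap between inhibitors did not pass.

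Between times of treatment, few CEP genes moved. With GSK591 CEP78 fell further from 2 to 4 days, by 0.67 ± 0.14 (SE, log2 scale; edgeR adjusted p = 0.00275; 3.39% of all genes passed), a call lost without replicate 2 at 2 days (-0.65) or at 4 days (-0.60). From 4 to 7 days of GSK591 1 CEP gene passed (8.29% of all genes; 0 CEP genes in DESeq2). With MS023 from 2 to 4 days (4.91% of all genes), CEP120 rose by 0.79 ± 0.16 (edgeR adjusted p = 0.00169) and CEP43, known as FOP and part of the centriole's distal end, rose by 0.52 ± 0.16 (edgeR adjusted p = 0.0418), from 12.4 and 10.1 CPM to 15.5 and 16.7 CPM. Annotated exons overlap CEP43 on both strands. CEP89 fell by 0.43 ± 0.12 over the same step (edgeR adjusted p = 0.0266). Only CEP120 held without most libraries, being lost without replicate 1 at 2 days (0.71). CEP43 and CEP89 were lost without any of their 4 libraries (0.38 to 0.68 and -0.52 to -0.32) and in DESeq2. From 4 to 7 days of MS023 0 passed (9.04% of all genes; 3 at an unadjusted p below 0.05 in edgeR, 0 in DESeq2).

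The 7-day effect was also measured in other libraries, by setting cells with 7 days of inhibitor and then Dex against cells with the same Dex alone. These 4 comparisons were added after the data had been seen, and none shares a library with the 7-day comparisons above. At each Dex time, the GSK591 and MS023 comparisons share the libraries of Dex alone, so they are not independent of each other. GSK591 gave 7 falls and 0 rises with Dex for 15 min (15.3% of all genes passed, 8.58% by falling) and 6 falls and 0 rises with Dex for 3 h (13.6%, of which 7.36% by falling). MS023 gave 8 falls and 0 rises with Dex for 15 min (15.3%, of which 7.75% by falling), but 3 falls and 2 rises with Dex for 3 h (11.5%, 6.11% by falling and 5.43% by rising). Leaving out any single library left 2 or 3 calls in the first, 1 to 3 in the second and 2 or 3 in the last. The 8 of the third became 2 without replicate 2 of Dex 15 min or replicate 1 of the treated group, and 5 without replicate 2 of the treated group. Over all genes, leaving out 1 library took the calls from 3514 to between 1661 and 2842, from 3107 to between 1677 and 2078, from 3504 to between 1494 and 2552 and from 2645 to between 1258 and 1548 in these 4. DESeq2 made 5, 4, 3 and 3 calls, and library totals alone gave 10 and 2 falls for GSK591 but 3 and 15 rises for MS023. Among markers of other cell types, CD14 (1.29) rose with GSK591 and Dex for 15 min, GFAP (1.69) with GSK591 and Dex for 3 h, COL1A1 (1.12) and COL3A1 (1.76) with MS023 and Dex for 15 min, and COL1A1 (0.90) with MS023 and Dex for 3 h. The 12 markers summed to 18.5 and 45.3 CPM in the 2 libraries of GSK591 and Dex for 3 h, and their part in the CEP results was not tested.

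CEP78 fell in all 4, by 1.00 ± 0.14 and 1.14 ± 0.14 for GSK591 and by 0.67 ± 0.13 and 0.75 ± 0.13 for MS023 on the log2 scale (SE; edgeR adjusted p between 2.34e-08 and 0.000249), and each call held without any single library. On library totals alone the last of these was 0.09. CEP55 fell with GSK591 in both, by 1.71 ± 0.45 and 2.05 ± 0.53 (edgeR adjusted p = 0.0171 and 0.0161), and with MS023 after Dex for 15 min by 1.48 ± 0.42 (edgeR adjusted p = 0.0257). With Dex for 15 min these calls were lost without any library but replicate 1 of Dex alone, and with Dex for 3 h without any of the 4, at values from -2.46 to -1.14. CEP128 fell with GSK591 and Dex for 3 h by 2.14 ± 0.64 (edgeR adjusted p = 0.0330), lost without any of its 4 libraries (-2.39 to -1.91), while the value with Dex for 15 min was -1.09 and did not pass.

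CEP120 passed here, whereas against Untreated cells neither inhibitor gave a call at 7 days. It read 20.5 and 23.5 CPM with Dex for 15 min alone and 12.3 and 10.3 CPM with GSK591 before it, a fall of 0.97 ± 0.17 on the log2 scale (SE; edgeR adjusted p = 2.46e-05) that held without any single library. With MS023 before the same Dex it read 13.9 and 18.1 CPM (-0.46 ± 0.15; edgeR adjusted p = 0.0337; -0.67 to -0.26 without single libraries, lost in 3 of 4 cases, and 0.08 on library totals). With Dex for 3 h it read 15.1 and 16.2 CPM alone and 11.8 and 9.97 CPM after GSK591 (-0.52 ± 0.17; edgeR adjusted p = 0.0363; lost without any of its 4 libraries, -0.66 to -0.41). DESeq2 did not make these last calls. CEP72 fell by 1.02 ± 0.34 with GSK591 and Dex for 15 min (edgeR adjusted p = 0.0325; lost without any of its 4 libraries, -1.36 to -0.81, and in DESeq2) but read 3.42 and 3.44 CPM with GSK591 and Dex for 3 h against 3.40 and 4.27 CPM with Dex alone. CEP295, which converts new centrioles into centrosomes, rose with MS023 and Dex for 3 h, from 6.70 and 4.76 CPM to 12.8 and 9.96 CPM, by 0.98 ± 0.23 (edgeR adjusted p = 0.00223). It was lost without replicate 2 of Dex for 3 h (0.77) or replicate 1 of the treated group (0.80). Exons of AP001273.1 and TAF1D overlap CEP295 on the opposite strand.

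CEP57 also rose with MS023 and Dex for 3 h, from 7.02 and 7.33 CPM to 12.2 and 9.15 CPM, by 0.58 ± 0.20 on the log2 scale (SE; edgeR adjusted p = 0.0457), while it fell with GSK591 against Untreated cells. It was lost without either library of Dex alone or replicate 1 of the treated group (0.36 to 0.78 over the 4), and in DESeq2. CEP63 read 11.8 and 13.6 CPM with Dex for 15 min alone, 8.47 and 8.76 CPM after GSK591 (-0.56 ± 0.19; edgeR adjusted p = 0.0399) and 7.58 and 9.16 CPM after MS023 (-0.61 ± 0.19; edgeR adjusted p = 0.0195). With Dex for 3 h it read 9.99 and 10.1 CPM alone and 6.95 and 5.73 CPM after GSK591 (-0.66 ± 0.21; edgeR adjusted p = 0.0258). None of these pairs overlapped the pair with Dex alone. The CEP63 calls were lost without any of 4 libraries, 2 of 4 and 3 of 4 (-0.66 to -0.47, -0.75 to -0.46 and -0.82 to -0.54), and all in DESeq2. CEP135 read 4.15 and 8.30 CPM with Dex for 3 h alone, which are far apart, 2.21 and 2.52 CPM after GSK591 and 2.93 and 4.13 CPM after MS023. Its values were -1.37 ± 0.31 and -0.80 ± 0.27 (edgeR adjusted p = 0.00120 and 0.0420). The first was lost without replicate 2 of Dex alone (-0.81), and the second without that library or either treated one (-1.23 to -0.23 over the 4) and in DESeq2, and it was 0.02 on library totals.

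The distal appendage genes CEP89 and CEP164 and the linker gene CEP250 fell with MS023 and Dex for 15 min. CEP89 read 29.2 and 27.3 CPM with that Dex alone and 17.9 and 18.1 CPM after MS023 (-0.65 ± 0.12; edgeR adjusted p = 0.000189), which held without any single library. After GSK591 it read 20.1 and 19.8 CPM (-0.50 ± 0.13; edgeR adjusted p = 0.00424; lost without replicate 1 of Dex alone, -0.46, or replicate 2 of the treated group, -0.50). With Dex for 3 h it read 35.7 and 33.1 CPM alone and 26.9 and 21.9 CPM after MS023 (-0.50 ± 0.12; edgeR adjusted p = 0.00380; lost without replicate 1 of Dex alone, -0.44, or replicate 2 of the treated group, -0.35, and 0.35 on library totals). All the CEP89 pairs were below those with Dex alone. CEP250 read 41.2 and 43.8 CPM with Dex for 15 min and 28.9 and 31.7 CPM after MS023 (-0.49 ± 0.14; edgeR adjusted p = 0.0126), lost without replicate 2 of Dex alone (-0.45) or replicate 1 of the treated group (-0.41). CEP164 read 14.1 and 13.7 CPM against 10.2 and 10.2 CPM (-0.45 ± 0.16; edgeR adjusted p = 0.0438), lost without any of its 4 libraries (-0.48 to -0.43). On library totals alone CEP250 and CEP164 were at 0.06 and 0.10.

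CEP131, a protein of the centriolar satellites, read 8.10 and 9.80 CPM with Dex for 15 min and 5.05 and 6.24 CPM with MS023 before it (-0.67 ± 0.24; edgeR adjusted p = 0.0473). CEP43 read 15.1 and 12.9 CPM with the same Dex and 9.70 and 10.2 CPM with GSK591 before it (-0.49 ± 0.17; edgeR adjusted p = 0.0424). Neither pair overlapped its control, but each call was lost without any of its 4 libraries (-0.83 to -0.50 and -0.61 to -0.38). DESeq2 called neither, nor CEP164 or CEP250.

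Dex alone moved no CEP gene past the threshold. After 15 min 0 of 33 passed (1.26% of all genes; 1 at an unadjusted p below 0.05 in edgeR, 0 in DESeq2), and after 3 h 0 of 33 passed (10.5% of all genes; 5 at an unadjusted p below 0.05 in edgeR, 0 in DESeq2). The lowest values at 3 h were those of CEP162 and CEP128, and CEP57 came nearest to the threshold, at 9.90 and 11.1 CPM in Untreated cells and 7.02 and 7.33 CPM with Dex, a log2 fold change of -0.55 ± 0.20 (SE; edgeR adjusted p = 0.0746). The median over the 33 genes was -0.26 at 3 h. Adding GSK591 to Dex for 3 h gave 0 CEP genes and 0 of all genes (0%; 2 CEP genes at an unadjusted p below 0.05 in edgeR, 0 in DESeq2). Adding MS023 gave 0 (0.196% of all genes; 9 at an unadjusted p below 0.05, all higher, and 0 in DESeq2), and 11 without replicate 1 of Dex with MS023, when the library that stood apart was the only one of its group left and 2388 of all genes passed, against 45 with both.

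After 7 days of inhibitor, Dex changed the CEP genes little. With GSK591 before it, Dex gave 0 at 15 min (2.09% of all genes; 1 at an unadjusted p below 0.05 in edgeR, 0 in DESeq2) and 0 at 3 h (9.85%; 6 and 0). Each of these became 1 without replicate 1 of its Dex group. With MS023 before it, 0 passed at 15 min (2.07%; 0 at an unadjusted p below 0.05 and 0 in DESeq2), and CEP295 rose at 3 h (11.1%), from 5.52 and 6.73 CPM to 12.8 and 9.96 CPM, by 0.89 ± 0.21 on the log2 scale (SE; edgeR adjusted p = 0.00191). That call was lost without replicate 1 of MS023 for 7 days (0.77) or replicate 1 of the Dex group (0.71). Whether the response to 3 h of Dex differed after the inhibitor was tested as an interaction, and 0 CEP genes passed for GSK591 (0.223% of all genes; 4 at an unadjusted p below 0.05 in edgeR, 0 in DESeq2) or MS023 (0.223%; 5 and 0). For CEP295 the interaction with MS023 was 1.15 ± 0.32 on the log2 scale (edgeR adjusted p = 0.126).

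Other genes of the same structures were counted in lists. Of 14 centriole assembly genes that are not CEP genes, 5 fell and 0 rose at 4 days and 4 fell and 0 rose at 7 days of GSK591, led at 7 days by the duplication kinase PLK4 at -2.01 ± 0.23 on the log2 scale (SE) and its target STIL at -1.78 ± 0.33. After 7 days of MS023, 2 fell, PLK4 (-0.71) and RTTN (-0.79), and 1 rose, POC1B (0.70). Of 12 genes of the pericentriolar material and gamma-tubulin complexes, 0 passed at 7 days of GSK591, and 2 fell at 7 days of MS023, PCNT (-0.62) and TUBGCP5 (-0.60). Of 11 linker and appendage genes, NEK2, the kinase that dissolves the linker before mitosis, fell at 7 days of GSK591 (-2.80 ± 0.44) and TTBK2 rose (0.82 ± 0.23), while CROCC (-0.57) and ODF2 (-0.86) fell at 7 days of MS023. Of all genes, 6.52% fell at 7 days of GSK591 and 6.51% at 7 days of MS023. Counts of 0 to 2 in lists of 11 to 14 genes are too few to be read as above or below that background.

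Genes of cell division were counted in the same way, beside 8.28% and 6.52% of all genes that fell at 4 and 7 days of GSK591 and 6.51% at 7 days of MS023. Of 21 mitosis genes, 14 fell at 4 days and 18 at 7 days of GSK591, with medians of -1.29 and -1.67, and BUB1B (-2.47) and AURKB (-2.44) were lowest among those called at 7 days. At 7 days of MS023, 7 fell, TPX2 (-1.27) and CCNB2 (-1.07) the furthest, and the median was -0.72. S phase genes fell in 14 of 20 cases at 7 days of GSK591 (median -1.05) and in 12 at 7 days of MS023 (median -0.61), with CDC45 (-2.35 and -1.39) and MCM2 (-2.11 and -1.13) lowest. Of 10 cytokinesis genes other than CEP55, 6 and 3 fell, led by RACGAP1 (-2.15 and -1.64) and CIT (-1.71 and -1.30). None of these lists had a rise at 7 days. Their medians and those of the CEP genes stand beside a median within 0.01 of 0 over all genes, and their part in the CEP results was not tested.

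**Figure D3:**
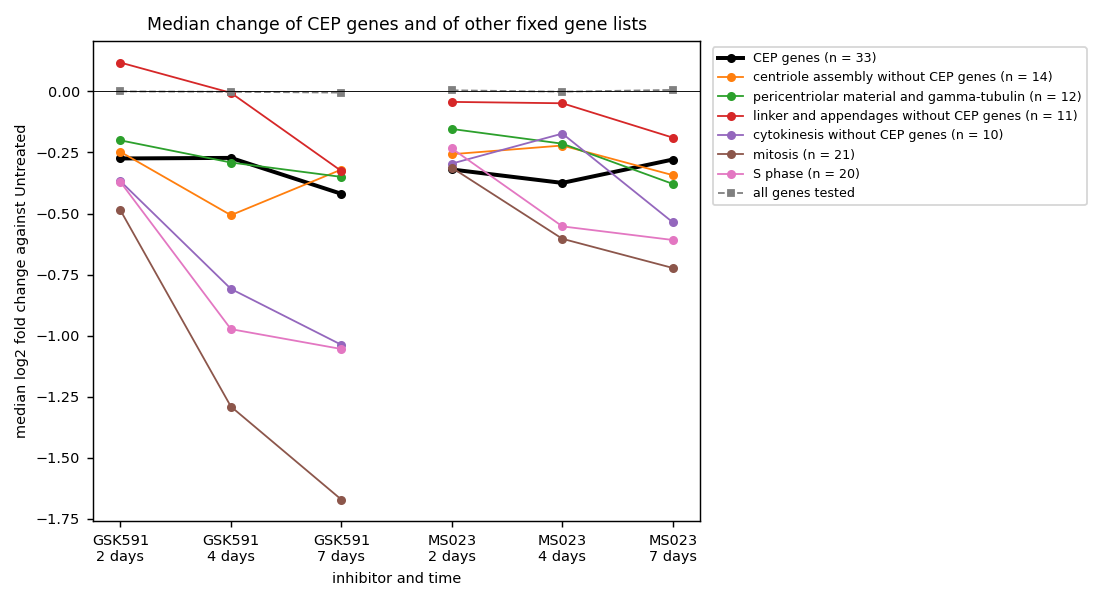
Median log2 fold change against Untreated after TMM scaling (vertical axis) of the 33 CEP genes, 6 lists of other genes and all genes tested, after 2, 4 and 7 days of each inhibitor (horizontal axis). The CEP line stays between -0.42 and -0.27, while the mitosis line reaches -1.67 after 7 days of GSK591; on library totals the median of the CEP genes is 0.74 after 7 days of MS023, beside 1.02 for all genes.

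The authors' deposited tables give another view of the same libraries, since their mean per gene is not the mean of the deposited counts. The mean in the authors' deposited tables, divided by the mean count, ran from 0.462 for CEP19 to 14.7 for CEP112, with 11.7 for CEP128 and a median of 2.54 over 30 genes. It was higher where exons made up less of the gene (Spearman's rho -0.72 and Pearson's r of the logarithms -0.76 across the 30 genes, which are not independent replicates). 

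In the authors' deposited tables, 14 CEP genes fell and 0 rose after 7 days of GSK591 (23.8% of their genes with an adjusted p passed, 13% by falling), and 13 fell and 0 rose after 7 days of MS023 (22%, 12.3% by falling). Of the 8 genes that passed in the counts and have a row there, 7 passed in the authors' deposited table at 7 days of GSK591 and 7 at 7 days of MS023, all in the same direction. CEP128 stood at -1.63 and -0.78 in the authors' deposited tables, CEP55 at -1.78 and -0.63, CEP72 at -1.43 and -0.26, and CEP78 at -0.82 and -0.48. CEP152 passed in the authors' deposited tables, at -1.32 for GSK591 and -0.86 for MS023, where the counts gave -1.40 and -0.79 without a call. CEP63 differed in sign after 7 days of GSK591: it was 0.18 in the authors' deposited table, without passing, and -0.65 in the counts. Signs also differed for CEP63 at 4 days of GSK591 (0.29 in the authors' deposited table) and CEP120 at 2 days of MS023 (0.15). Neither passed there, whereas both fell and passed in the counts. CEP57 passed at 7 days of MS023 in the authors' deposited table, as given above, and not in the counts.

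**Figure D4:**
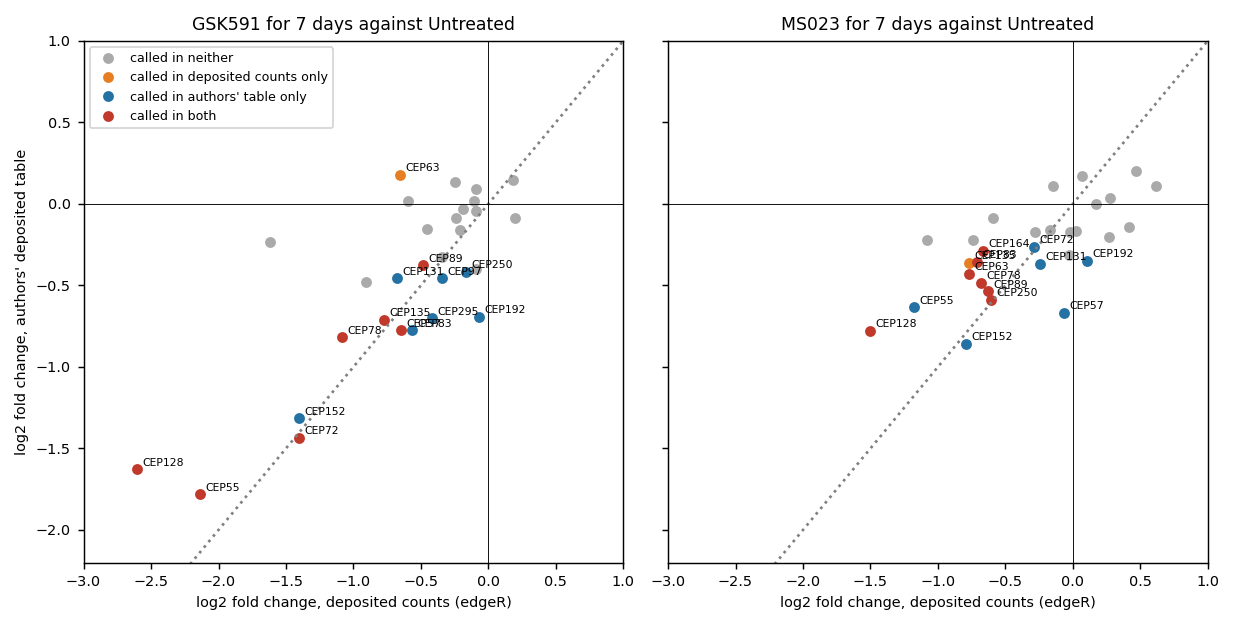
Log2 fold change after 7 days of GSK591 (left) or MS023 (right) against Untreated for 30 CEP genes, from the deposited counts after TMM scaling (horizontal axis) and from the authors' deposited tables (vertical axis); colours mark where a gene passed and the dotted line marks equal values. CEP128 lies farthest from that line among the genes called in both, at -2.60 in the counts and -1.63 in the authors' table for GSK591; on library totals the MS023 values of CEP63, CEP78, CEP83, CEP89, CEP135, CEP164 and CEP250 turn positive.

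For Dex at 3 h the authors' deposited table has 3 CEP genes that fell, CEP20 (-0.57), CEP192 (-0.36) and CEP83 (-0.29), and 1 that rose, CEP70 (1.11 ± 0.16 SE; 21.9% of the table's genes passed). CEP70 read 6.56 and 5.74 CPM in Untreated cells and 9.25 and 8.18 CPM after 3 h of Dex in the counts, without overlap, a log2 fold change of 0.51 ± 0.21 (edgeR adjusted p = 0.123). At 15 min no CEP gene has an adjusted p below 0.05 in the authors' deposited table, where 3.93% of all genes do. At 4 days the authors' deposited tables have 11 falls and 2 rises for GSK591 (26.8%, 14% by falling) and 7 falls and 1 rise for MS023 (22.5%, 12.3% by falling). CEP126 rose in both of the authors' deposited tables, by 0.65 and 0.42, and CEP290 rose with GSK591, by 0.46. At 2 days the authors' deposited tables have 5 falls and 0 rises for each inhibitor (14.7%, 9.16% by falling, for GSK591 and 17.7%, 9.26% by falling, for MS023). Of the genes that passed in the counts and have a row in the authors' deposited tables, 6 of 10 and 4 of 6 passed there at 4 days of GSK591 and MS023, and 0 of 1 and 0 of 2 at 2 days.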

How the data were processed

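PRO-seq counts of 30 A549 libraries were analysed in 15 groups taken from the sample labels. The authors deposited whole-number counts per gene, made with featureCounts 2.0.1 of Subread on hg38 per the submitters' processing notes. The aligner, the feature type counted and the use of strand are not given in the sources used here. Comparison tables set against Untreated were deposited too, whose mean signal per gene, log2 fold changes, standard errors and p-values are theirs per the file headers. 8 of these were used. Gene positions came from GENCODE 29.

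The counts were tested with edgeR 4.0.16 (R 4.3.3, TMM, robust quasi-likelihood, all 15 groups in 1 fit), after filterByExpr (minimum count 10, minimum total 15), with Benjamini-Hochberg adjustment over 22919 genes and a threshold of 0.05. The common biological coefficient of variation was 10.6%. CPM were computed on the TMM scale. For the counts, SE is the absolute log2 fold change divided by the square root of the quasi-likelihood F. It comes from the fit over all 30 libraries and not from the 2 compared groups alone. The script was tested on simulated counts with changes put into a small part of the genes of 1 group. In the real data far more genes passed at 7 days, 13.2% with GSK591 and 13.6% with MS023. The simulated shares that follow therefore need not hold for these data. At 7 days of GSK591 and MS023, 12.9% and 0% of genes changed by 0.5 on the log2 scale were recovered. For changes of 1 the shares were 49.2% and 50.8%. False calls made up 7.61% and 11.4% of the calls there, at the threshold of 0.05, and 4.76% at 4 days of GSK591. A permutation of 2 libraries against 2 cannot give p below 0.333. Values are given per library for genes called in at least 2 of the 6 inhibitor comparisons or in any other, with the rest by range and count, and in each list the called genes with the 2 largest changes are named. The members and lists were chosen with earlier results of these data known. Alternatives were DESeq2 1.42.0, its size factors, library totals, no filter, only the groups compared, a replicate block and leaving out each library. Sequences are RefSeq's. The single-gene values of 1 CEP gene, which stays in all counts and medians, and of 1 marker are not reported here.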

Additional observations from a re-analysis of the deposited data

Results flagged for a closer look

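Of the changes of CEP genes that differed between inhibitors or between times by a direct edgeR test, 7 are given here. At 4 days CEP78 was at -0.53 (log2 scale) with GSK591 relative to MS023. At 7 days CEP72 was at -1.11 and CEP250 at 0.45 with GSK591 relative to MS023, and on library totals alone CEP250 was at -0.60. From 2 to 4 days of GSK591 CEP78 moved by -0.67. From 2 to 4 days of MS023 CEP89 moved by -0.43, CEP120 by 0.79 and CEP43 by 0.52. Each was lost without at least 1 library, as given with its value above.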

How the results depend on the processing

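Counts are of CEP genes that passed. Genes at few counts, such as CEP162 (2 to 34 counts per library), had the widest standard errors. DESeq2 size factors left every count within 1.5 times. On library totals alone the counts were 0, 7 and 4 for GSK591 and 8, 12 and 18 for MS023 at 2, 4 and 7 days, 31 between inhibitors at 7 days, 0 and 5 for GSK591 from 2 to 4 and 4 to 7 days, 0 for MS023 from 2 to 4 days, 0 for Dex 3 h after MS023, and 2 (GSK591 with Dex 3 h), 3 and 15 (MS023 with Dex 15 min and 3 h) with Dex in both groups. On that scale the fold changes of CEP250 turned to 0.0051 at 4 days of GSK591, 0.17 and 0.42 at 4 and 7 days of MS023, 0.063 with MS023 and Dex 15 min, and -0.60 between inhibitors. CEP78 turned to 0.085, 0.18 and 0.34 with MS023 and to 0.087 with MS023 and Dex 3 h. CEP164 turned to 0.24, 0.35 and 0.10 (4 days, 7 days, and with Dex 15 min), CEP89 to 0.20, 0.39 and 0.35 (4 days, 7 days, and with Dex 3 h), CEP135 to 0.24 and 0.015 (7 days, and with Dex 3 h), and CEP83, CEP63 and CEP120 to 0.31, 0.25 and 0.083 (CEP120 with Dex 15 min).

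DESeq2 gave 0 and 5 for GSK591 at 2 and 4 days, 0 between inhibitors at 7 days, 2 and 0 for GSK591 from 2 to 4 and 4 to 7 days, 1 for MS023 from 2 to 4 days, and 3 and 3 for MS023 with Dex 15 min and 3 h. Without the filter the counts were 2 and 4 at 2 days of GSK591 and MS023, 2 for GSK591 from 2 to 4 days and 2 for Dex with MS023. With only the groups compared they were 6, 9 and 10 for GSK591 at 2 days and MS023 at 2 and 4 days, 5 and 5 between inhibitors at 4 and 7 days, 5 and 3 for GSK591 from 2 to 4 and 4 to 7 days, 1 for MS023 from 4 to 7 days and 1 for Dex 3 h. MS023 at 7 days gave 5 in the libraries with Dex 3 h. The cause was not tested.

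Leaving out each library gave 0, 5 to 9 and 2 to 8 for GSK591 at 2, 4 and 7 days, 1 to 3, 2 to 3 and 3 to 5 for MS023, 0 to 1 between inhibitors at 4 and 7 days and for every step between times with a call, 0 to 11 for Dex with MS023, 0 to 1 for Dex 15 min or 3 h after GSK591 and for Dex 3 h after MS023, and 2 to 3, 1 to 3, 2 to 6 and 2 to 3 with Dex in both groups. The replicate block, which takes same-numbered libraries as paired, changed none of 72 calls. For example, it left 9 CEP genes at 7 days of GSK591. Across all groups the numbers showed no common pairing: over 105 pairs of groups the correlation of deviations ran from -0.46 to 0.50 with a median of 0.02. It was above 0.1 in 22 pairs and below -0.1 in 13, and pairing among some of the groups was not tested.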
